A study of Drosophila melanogaster with 4 samples.

Results

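The X chromosome of the Drosophila melanogaster embryo carried 1392 clusters enriched for histone H3 acetylated at lysine 27 (H3K27ac), of 7474 enriched clusters in the list that the authors made from their replicate set. Members were all regions of that combined list placed on the assembled X and marked as enriched. The list of ChIP replicate 1 held 1196 such clusters of 6223, and the list of ChIP replicate 2 held 1177 of 6317. The 9 clusters on XHet, a scaffold of X heterochromatin, were counted apart from X in every list. X, with 22.4 Mb of assembled sequence, was set against the 4 long autosomal arms, 2L, 2R, 3L and 3R, which held 5823 clusters of the combined list, 4816 of replicate 1 and 4962 of replicate 2.

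H3K27ac is laid down at active promoters and enhancers, in flies by the acetyltransferase Nejire (the CBP orthologue), and occupies the same residue that Polycomb complexes methylate in silenced genes. The X is the chromosome on which the sexes differ: females carry a pair and males a single copy. In males the MSL complex binds active X genes, acetylates histone H4 at lysine 16 there and raises their transcription, a process called dosage compensation. H3K27ac is a different mark, and its distribution along X at this age is what the clusters describe.

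Chromatin came from wild-type embryos of the Oregon-R strain, 14 to 16 h old, from flies kept in population cages and crosslinked with 1.8% formaldehyde. The 4 libraries were 2 H3K27ac ChIP libraries and 2 input libraries, each input belonging to a single ChIP replicate. Whole embryos mix all cell types, the labels give no sex, and a stronger mark in few cells cannot be told apart from a weaker mark in many. Each cluster has a start, an end and a value deposited by the authors on a scale that is not stated, and the depth of the libraries is unknown. Positions are on FlyBase release 5. No annotation of that release was used, so clusters are not tied to genes and the labelled stage could not be checked against marker genes.

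H3K27ac clusters covered more of X than of the autosomal arms together. They took up 25.4% of X in replicate 1 and 25.7% in replicate 2, or 5.72 ± 0.0396 Mb (SD, n = 2). On the pooled autosomal arms they covered 22.0% in replicate 1 and 23.0% in replicate 2. X exceeded the autosomal arms by 3.04 ± 0.505 percentage points (SD, n = 2 replicates). The covered share of X was above every autosomal arm in replicate 1, where the highest was 25.01%, and within their range in replicate 2, where the highest was 25.9%. In both cases that arm was 2R. Clusters per Mb numbered 53.3 and 52.5 on X, against 49.9 and 51.4 on the autosomal arms. This difference of 2.31 ± 1.67 (SD, n = 2) placed X within the range of the 4 arms in both replicates, and was 1.03 after clusters less than 500 bp apart were merged and 3.61 without arm ends of 2 Mb. With 2 replicates an exact sign-flip permutation test cannot go below a two-sided p of 0.5, which is what each X difference with the same sign in both replicates gave. No difference between X and the autosomal arms is therefore shown by a test. The labels do not state whether separate embryo collections stand behind the replicates, so their SD may be technical.

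**Figure D1:**
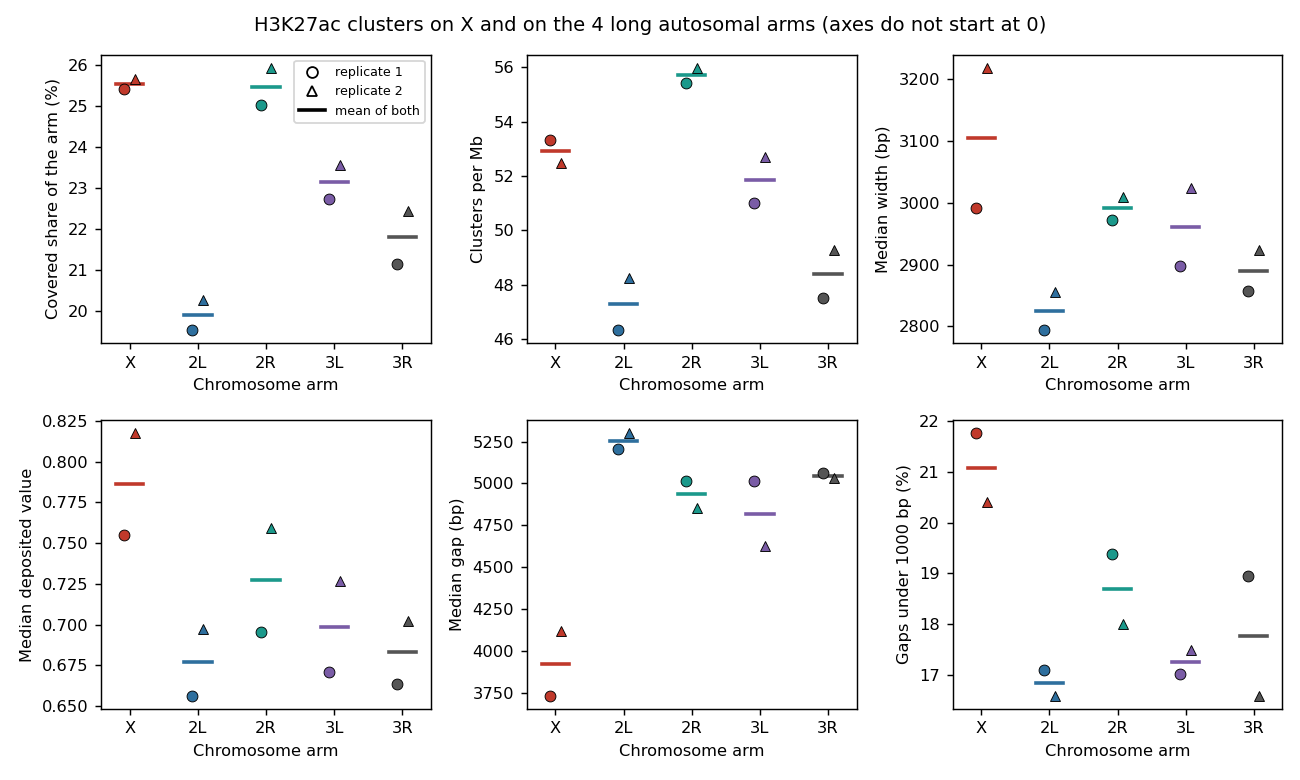
Covered share (%), clusters per Mb, median cluster width (bp), median deposited value, median gap between neighbouring clusters (bp) and share of gaps under 1000 bp (%), for X and each long autosomal arm; circles are replicate 1, triangles replicate 2 and lines their mean. X stands apart from all 4 arms in value, gap and share of short gaps, and lies close to 2R in covered share.

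Cluster values on X were higher than on each autosomal arm, and the shift was already present among the weakest clusters. The median value was 0.755 in replicate 1 and 0.817 in replicate 2 on X, against 0.669 and 0.722 on the pooled autosomal arms. The highest median of any autosomal arm was 0.695 in replicate 1 and 0.759 in replicate 2. X exceeded the pooled arms at the median by 0.091 ± 0.0070 (SD, n = 2). At the 5th percentile the difference was 0.092 ± 0.0041, at the 25th 0.092 ± 0.015, at the 75th 0.136 ± 0.016 and at the 95th 0.143 ± 0.015 (SD, n = 2 each). X was above the range of the 4 arms at each of these percentiles in both replicates. Weak clusters were accordingly scarce on X in the replicate lists. Only 14 of its clusters in replicate 1 and 15 in replicate 2 had a value under 0.4, or 1.17% and 1.27%. On the autosomal arms there were 356 in replicate 1 and 317 in replicate 2, or 7.39% and 6.39%, and the arm with the smallest share had 5.99% in replicate 1 and 5.86% in replicate 2. In the combined list such clusters were common on X too, at 316 of 1392 (22.7%), against 37.5% on the autosomal arms. The limit of 0.4 was chosen after the values were seen.

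By its single highest cluster X did not lead. That cluster had a value of 2.50 in replicate 1 and 2.70 in replicate 2, against 3.06 and 3.34 for the highest autosomal cluster. The autosomal maximum is taken over more clusters. At the 99th percentile X was above every arm, at 2.092 and 2.171 against 2.001 and 2.168 on 2R, the highest arm. At the 97th it was below 2R in replicate 1, at 1.771 against 1.780. The lists give neither the threshold of the caller nor the reads behind a cluster. Whether the smallest value that could be called differed between X and the autosomes was therefore not tested. The single lowest value was 0.288 on X in replicate 1, above the minimum of each arm, of which the highest was 0.248. In replicate 2 it was 0.214 on X, within the range of the arm minima of 0.157 to 0.224. Above the median value of each whole list the X difference in median value was smaller, at 0.042. That cut is made on the value itself, so it gives no independent check of the shift.

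**Figure D2:**
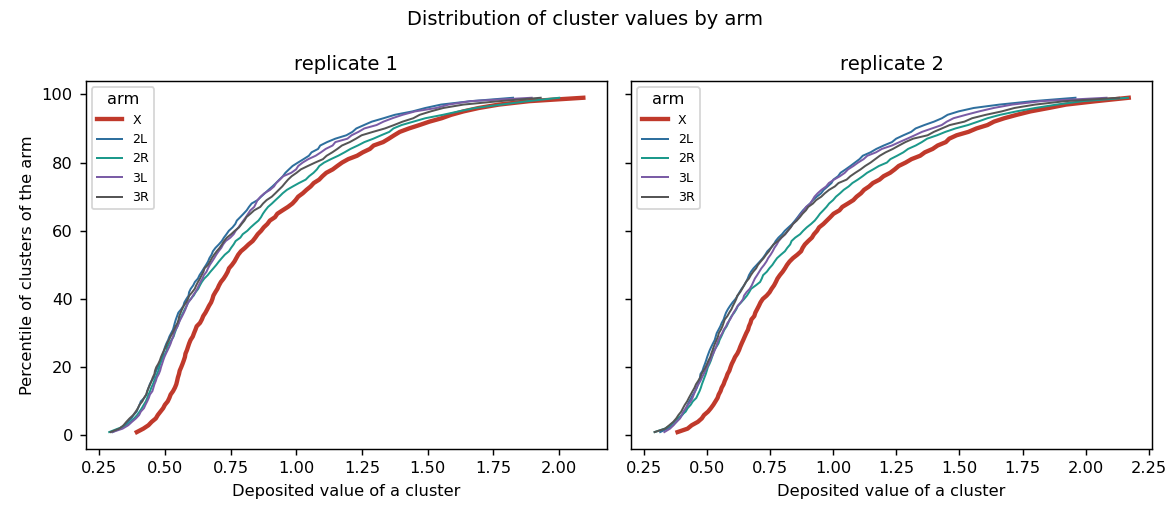
Deposited cluster value (x axis) against the percentile of clusters of the arm (y axis, from 1 to 99), in replicate 1 and replicate 2. The X line lies to the right of the 4 autosomal arms through the lower and middle percentiles and meets that of 2R near the top of replicate 1, with a 5th percentile of 0.465 and 0.480 against 0.376 and 0.385 on the pooled arms.

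Wider clusters had higher values on X, with a Spearman rho of 0.860 across 1196 clusters of replicate 1 and 0.842 across 1177 of replicate 2, and the autosomal arms gave 0.853 and 0.850. These are descriptions, since clusters of a list share 1 library. Within every width class X had the higher median value in both replicates. Clusters narrower than 2000 bp had medians of 0.524 and 0.545 on X against 0.438 and 0.450 on the autosomal arms. Those of 10000 to 20000 bp had 1.38 and 1.47 on X against 1.27 and 1.34 on the autosomal arms. In the broad class of at least 20000 bp the medians were 1.60 and 1.70 on X, against 1.42 and 1.50. The differences in these 3 classes, 0.090 ± 0.0057, 0.122 ± 0.0061 and 0.189 ± 0.014 (SD, n = 2), put X above each of the 4 arms in both replicates. With the autosomal clusters weighted to the widths found on X, the difference in median value was 0.068.

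X clusters were also somewhat wider, mainly in the upper part of the distribution. The X clusters had a median width of 2992 bp (replicate 1) and 3219 bp (replicate 2), against 2878.5 and 2938.5 bp on the autosomal arms. The difference of 197 ± 118 bp (SD, n = 2) was of the size of the spread between replicates, since the X medians themselves differed by an SD of 160.5 bp. At the upper quartile X exceeded the autosomal arms by 510.2 ± 90.2 bp (5464.75 and 5584 bp on X against 5018.25 and 5010 bp). At the 90th percentile it exceeded them by 1325.7 ± 172.3 bp (10126 and 10128.2 bp on X against 8678.5 and 8924.3 bp; SD, n = 2 each). Both lay above the range of the 4 arms in both replicates. Above the median value of each list the sign of the median difference turned, to -74.75 bp. That cut is made on the value, which rose with width and was higher on X in every width class.

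The excess of wide clusters was clearest in a middle range. X had 98 clusters of 10000 to 20000 bp in each replicate, which is 4.37 per Mb, against 2.95 and 3.26 per Mb on the autosomal arms and at most 3.55 and 3.97 on any of them. Narrow clusters under 2000 bp showed no steady difference, with 12.8 and 11.02 per Mb on X against 12.5 and 12.6 on the autosomal arms. Broad clusters of at least 20000 bp numbered 24 on X in both replicates, or 1.07 per Mb. The autosomal arms had 0.807 and 0.911 per Mb, and in replicate 2 a single arm exceeded X with 1.09. Broad clusters held 11.2% and 11.9% of the covered bases on X and 10.5% and 10.98% on the autosomal arms. That difference of 0.846 ± 0.137 points (SD, n = 2) left X within the range of the arms. It turned to -0.594 points above the median value of each list, a cut made on the value, which was higher on X. The difference was 2.00 after merging, 2.38 without arm ends of 2 Mb and 3.89 in the combined list. The widest X cluster measured 47942 bp in replicate 1 and 49437 bp in the other list and was narrower than the widest autosomal one, at 65316 and 63589 bp.

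**Figure D3:**
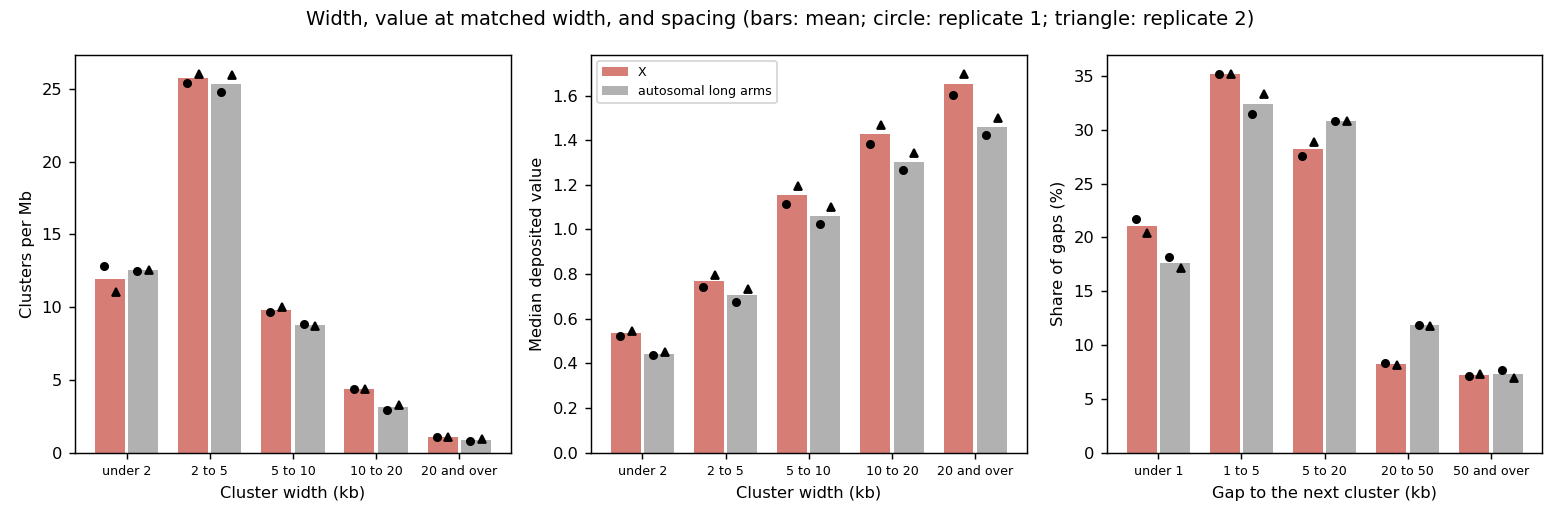
Clusters per Mb by width, median deposited value by width, and share of gaps by gap length, with X beside the pooled long autosomal arms; bars are means of 2 replicates, circles replicate 1 and triangles replicate 2. X has the higher value in every width class, more clusters of 10 to 20 kb and fewer gaps of 20 to 50 kb.

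Neighbouring clusters stood closer together on X than on any of the 4 autosomal arms. The median gap, taken from the end of a cluster to the start of the next, on X came to 3733 bp (replicate 1) and 4117 bp (replicate 2). On the pooled autosomal arms it was 5062.5 and 4895 bp, and the arm with the smallest median had 5014 bp (replicate 1) or 4624 bp (replicate 2). The difference was -1053.75 ± 390 bp (SD, n = 2). Gaps under 1000 bp made up 21.8% and 20.4% of the X gaps against 18.1% and 17.2% on the autosomal arms, 3.43 ± 0.262 points more on X. At intermediate length the difference was of similar size and in the opposite direction. Gaps of 20 to 50 kb made up 8.37% and 8.16% of the X gaps against 11.9% and 11.8% on the autosomal arms, -3.59 ± 0.068 points (SD, n = 2 each). X lay below every arm for these intermediate gaps, above every arm for gaps under 1000 bp, and in both replicates each time.

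Long empty stretches did not follow that pattern. Gaps of 50 kb and over were 7.11% and 7.31% of the X gaps and 7.67% and 6.92% of the autosomal gaps, with opposite signs of the difference in the 2 replicates. They numbered 85 and 86 on X and took up 40.7% and 40.8% of its length, against 38.3% and 36.1% of the autosomal arms. X thus held more short gaps and fewer intermediate ones, with no steady difference in the share of long ones. Chains of clusters with every gap under 1000 bp contained 38.9% of the X clusters in replicate 1 and 36.5% in replicate 2, against 32.5% and 31.0% on the autosomal arms, 5.98 ± 0.627 points more (SD, n = 2). The highest share on any autosomal arm was 35.1% in replicate 1 and 32.3% in replicate 2. A chain on X had a median span of 9.31 and 8.99 kb.

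Coverage was highest near the telomere end of X and lowest at its centromere end. In the first 10% of the assembled arm, counted from the telomere end, clusters covered 36.2% in replicate 1 and 36.3% in replicate 2 of X, against 26.2% and 27.4% of the autosomal arms. The highest autosomal arm had 33.9% and 34.03% there. The first 5% taken alone was not above the autosomal arms, at 28.9% and 28.8% on X against 29.7% and 30.8%. Between the outer 10% at either end X was covered at 25.9% and 26.2%, against 21.7% and 22.8%. There it lay just above the highest arm in replicate 1, at 25.93% against 25.90%, and below it in replicate 2, at 26.23% against 27.17%. The last 10%, at the centromere end of the assembly, was covered at only 10.4% in each replicate of X, against 20.3% and 19.7% of the autosomal arms. There X lay below every arm, the lowest of which had 14.3% in replicate 1 and 12.5% in replicate 2. The last 5% taken alone did not place X below every arm, at 8.80% and 8.38% on X against 5.95% and 3.56% on 3L. X was below 2L, 2R and 3R there, of which 2R had 12.9% and 10.3% and 3R 34.9% and 36.2%. From 90 to 95% of the arm X lay below all 4 arms in both replicates. The differences were 9.45 ± 0.768 points in the first 10%, 3.82 ± 0.590 in the middle and -9.59 ± 0.440 in the last 10% (SD, n = 2). Of 20 bins of 5% of the arm, X was the more covered in 13 and the less covered in 5 in both replicates. The surplus over the autosomal arms was therefore not uniform along X. Whether reads could seldom be placed near the centromere end was not tested.

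**Figure D4:**
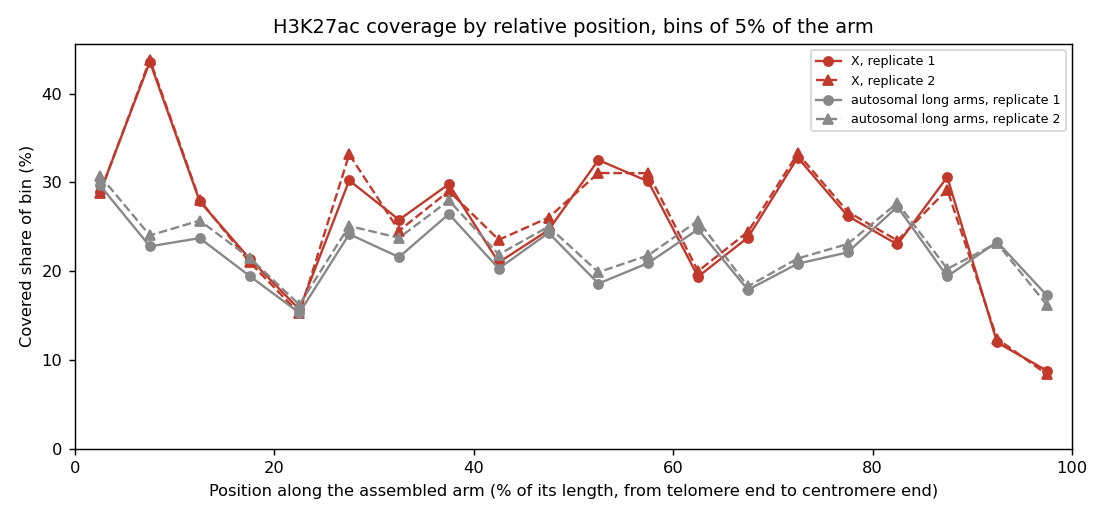
Share of bases in H3K27ac clusters (%, y axis) in 20 bins along the assembled arm, from the telomere end to the centromere end (% of arm length, x axis), for X and the pooled long autosomal arms; circles with solid lines are replicate 1, triangles with dashed lines replicate 2. X reaches 43.6% and 43.8% between 5 and 10% of its length and 8.80% and 8.38% in its last bin. In the last bin the pooled line mixes 3R at 34.9% and 36.2% with 3L at 5.95% and 3.56%.

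Within X, the 22 full bins of 1 Mb differed widely in coverage. The median bin was covered at 27.9% (mean of the replicates), with quartiles of 22.4% and 29.8%. The most covered bins were 1000001 to 2000000, at 38.5 ± 0.874%, 11000001 to 12000000, at 33.6 ± 0.854%, and 19000001 to 20000000, at 33.2 ± 1.03% (SD, n = 2), which was not separated from 6000001 to 7000000, also at 33.2 ± 1.37%, or from 2000001 to 3000000, at 33.1 ± 0.113%. The least covered were 21000001 to 22000000, at 10.7 ± 0.164%, 20000001 to 21000000, at 11.1 ± 0.222%, and 14000001 to 15000000, at 17.2 ± 0.0631%. A step thus lay at 20 Mb, where a highly covered bin adjoined the second least covered. There were 71 clusters in replicate 1 and 67 in replicate 2 before this step, and 22 and 25 in the bin after it. Coverage followed the number of clusters in a bin (Spearman rho 0.903 over 22 bins) more than their median value (rho 0.422). Bins share their libraries, so these are descriptions. By value, the bin from 16000001 to 17000000, singled out after its values were seen, stood highest, with medians of 1.00 and 1.03 against 0.755 and 0.817 for all of X. Its coverage of 28.9 ± 0.447% (SD, n = 2) was close to the median bin.

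Most X clusters of either replicate overlapped one in the other. By at least 1 bp, 1038 of the 1196 clusters of replicate 1 (86.8%) and 1023 of the 1177 of replicate 2 (86.9%) did so. On the autosomal arms the shares were 89.99% of replicate 1 and 85.6% of replicate 2, so the difference had opposite signs in the 2 lists. The counts also moved differently: X had 19 clusters fewer in replicate 2 than in replicate 1, whereas 2L had 44 more, 2R 12 more, 3L 41 more and 3R 49 more. X clusters found in a single replicate were narrow and weak. In replicate 1 these 158 clusters measured 1651 bp at the median and the shared ones 3438 bp, with median values of 0.549 and 0.821. In replicate 2 the 154 unshared clusters measured 1678 bp and the shared ones 3634 bp, with median values of 0.573 and 0.897. Unshared clusters on the autosomal arms were as narrow, with medians of 1647.5 and 1690 bp, but had lower median values of 0.461 and 0.480. An unshared X cluster lay a median of 2488.5 bp (replicate 1) or 3365 bp (replicate 2) from the nearest cluster of the other list. All 24 broad X clusters of each replicate were among those shared, as were all 78 and all 88 on the autosomal arms.

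Among 789 X pairs that overlapped only each other, values ran together, at 0.875 by Spearman's rho and 0.932 by Pearson's r. The 3466 autosomal pairs gave 0.883 and 0.927. Starts lay a median of 178 bp apart and ends 185 bp apart on X, against 156 and 164.5 bp on the autosomal arms. Replicate 2 had the higher value in 539 X pairs (68.3%) and in 2363 autosomal pairs (68.2%). The offset in its favour had a median of 0.08 on X (SD 0.15 over the 789 pairs) and 0.07 on the autosomal arms. Values belong to their own list, so this offset is no measure of acetylation.

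**Figure D5:**
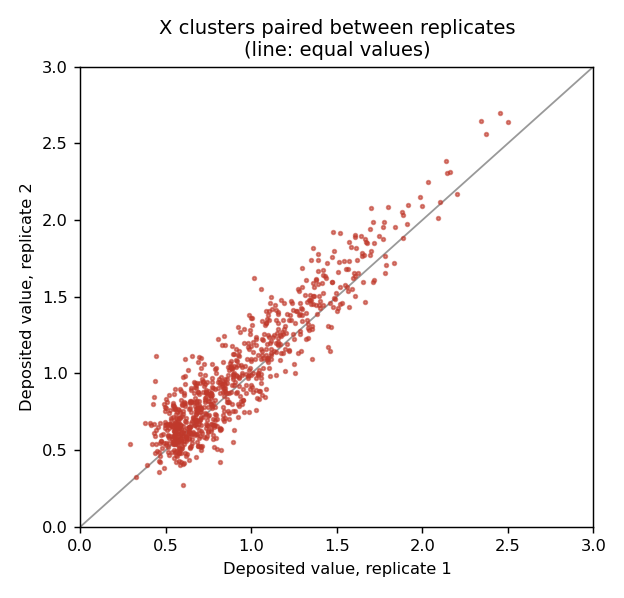
Deposited value in replicate 1 (x axis) against replicate 2 (y axis) for the 789 X clusters that overlap only each other; the line marks equal values. Points scatter around the line, with 539 of 789 above it.

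In the combined list, 878 of the 1392 X clusters (63.1%) overlapped clusters of both replicates, with a median width of 4788 bp and 6.19 Mb of covered sequence. A further 134 overlapped replicate 1 alone and 137 replicate 2 alone, with median widths of 1906 and 1900 bp. The remaining 243 (17.5%) overlapped neither and had a median width of 1290 bp. On the autosomal arms 65.6% overlapped both and 16.3% neither. X values were higher in each of these classes, with medians of 0.793 against 0.704 for clusters in both replicates and 0.392 against 0.324 for those in neither. The combined list comes from the same libraries and gives no independent support.

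The 10 widest X clusters of the combined list that overlapped both replicates spanned 33.5 to 49.7 kb. The widest lay from 6859702 to 6909366 (49.7 kb, value 1.83), flanked by 85.5 kb without a combined cluster on one side and 68.3 kb on the other. It was a single cluster of value 1.90 in replicate 2, while replicate 1 divided it into 4 with values of 0.683 to 1.87. The summed width barely differed, at 49.0 ± 0.640 kb (SD, n = 2). The second, from 12608552 to 12656544 (48.0 kb, value 2.21), was single in both replicates, with values of 2.14 and 2.30. It therefore belonged to the widest and the strongest X clusters alike, and another cluster ended 186 bp before it.

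The next of the 10 were mostly divided in the replicate lists. The cluster from 11386170 to 11429610 (43.4 kb, value 1.18) corresponded to 4 clusters in replicate 1 and 1 in replicate 2. From 17600934 to 17641768 (40.8 kb, value 1.41) there were 2 in replicate 1 and 3 in replicate 2. The next wide region, at 1145664 to 1184802 (39.1 kb, value 1.25), had 5 in replicate 1 and 1 in replicate 2. A pair of wide clusters 7356 bp apart differed in make-up. The first, from 10606098 to 10644766 (38.7 kb, value 2.22), contained a replicate cluster of value 2.48 in replicate 1 and of 2.39 in replicate 2. The second, from 10652122 to 10688880 (36.8 kb, value 1.22), was broken into 5 clusters in each replicate, of values up to 1.43 and 1.72. The last of the 10 had widths of 37.7 kb (1855974 to 1893662, value 1.95), 34.5 kb (2527258 to 2561754, value 1.53) and 33.5 kb (6740772 to 6774228, value 2.55). Single clusters in both replicates numbered 3 of the 10.

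By value, the 10 highest X clusters found in both replicates were of mixed width, 4 of at least 20000 bp and 3 narrower than 10000 bp. Of all 1392 X clusters of the combined list, 43 reached 20000 bp. Their median width was 3080 bp and their 90th percentile 10861.8 bp. The highest was compact, from 9044640 to 9051592 (6.95 kb, value 2.56), with 2.50 in replicate 1 and 2.64 in replicate 2. Close to it in value was the 33.5 kb domain from 6740772 to 6774228, with 2.45 and 2.70. It was followed by the 85.5 kb gap before the widest X cluster. The third, from 7225020 to 7237864 (12.8 kb, value 2.39, replicates 2.34 and 2.65), bordered the second longest empty stretch of X. These 3 had replicate means of 2.57 ± 0.097, 2.58 ± 0.175 and 2.49 ± 0.217 (SD, n = 2), so their order is not separated by the spread.

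The domains at 10606098 and 12608552 named above were also among the 10 strongest, and the others were narrower than these. From 527696 to 534104 (6.41 kb, value 2.32) the replicates gave 2.37 and 2.56, and from 1902720 to 1909648 (6.93 kb, value 2.19) they gave 2.14 and 2.38. From 8301808 to 8318930 (17.1 kb, value 2.16) replicate 1 had 2.20 and replicate 2 had 2.17, the closest match among the single clusters. The last places went to 2171740 to 2203866 (32.1 kb, value 2.11) and 16312360 to 16325442 (13.1 kb, value 2.09). In all, 8 of the 10 were a single cluster in each replicate and 7 of those 8 had the higher value in replicate 2. Among all X pairs that overlapped only each other, 68.3% did. The group of the 10 widest and that of the 10 highest had 3 clusters in common, each group being drawn from 878 X clusters. Over all X clusters of the combined list, width and value had a Spearman rho of 0.813.

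The 2 highest values of the combined list on X belonged to clusters that overlapped no cluster of either replicate. They lay from 14177426 to 14178426 (value 3.04) and from 5375220 to 5376220 (value 2.87), and were exactly 1000 bp wide, the narrowest width of that list. The narrowest X cluster was 1301 bp in each replicate list, so regions of 1000 bp have no counterpart of their own width there. Overlap, however, asked for only 1 bp. Of the X clusters narrower than 1300 bp, 0 overlapped both replicates, 7 replicate 1 alone, 15 replicate 2 alone and 124 neither. Whether width bears on the lack of overlap was not tested. The 2 highest clusters stood apart from other clusters, at least 15686 and 32004 bp from the nearest. Next came clusters from 14451898 to 14453268 (1370 bp, value 1.45), from 7019194 to 7020204 (1010 bp, value 1.42) and from 927282 to 928366 (1084 bp, value 0.93), also in neither replicate. Of the 243 X clusters in neither replicate, 4 had a value above 1, and 124 were narrower than 1300 bp. On the autosomal arms these were 9 and 464 of 951.

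The longest stretches of X without a cluster in any of the 3 lists lay near the centromere end and on the telomere side of the arm. The longest ran 339.8 kb from 21503727 to 21843487, and the fourth, 205.7 kb from 21259323 to 21465051, lay just before it. Between them stood an isolated group of clusters, from 21465052 to 21503726 (38.7 kb), singled out after its values were seen. It was made of 6 clusters in each replicate, of 1.93 to 3.56 kb in replicate 1 and 1.78 to 2.76 kb in replicate 2. Their starts were 5.42 to 9.49 kb apart in replicate 1 and 5.87 to 9.82 kb in replicate 2, so number and range of spacing were alike in the replicates. The combined list differed, with 8 clusters whose starts were 3.45 to 6.60 kb apart. Values in the group were 0.545 to 0.885 in replicate 1, where the X median was 0.755. In replicate 2 they were 0.404 to 0.799, all below the X median of 0.817. The second longest stretch, 234.7 kb from 7237865 to 7472597, began at the edge of the third strongest cluster. A pair of stretches, 214.2 kb from 4219879 to 4434041 and 203.5 kb from 4598857 to 4802359, fell in the same 1 Mb bin, which was covered at 17.7 ± 0.544% (SD, n = 2). Outside these stretches clusters reached almost to both ends of the assembly, the first starting at 18182 and the last ending 6.33 kb before the end.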

How the data were processed

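The submitters' processing notes name Bowtie 0.12.7 as the aligner, and the file headers name FlyBase release 5. The sources used here do not give the peak caller, its threshold or the joining of replicates. Enriched regions were deposited by the authors per ChIP replicate and as a combined list. Each region carries a score from the authors, called value in the text, whose scale is not stated. Groups followed the sample titles. No input list was analysed here, and the lists hold no read counts.

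Width was end minus start, a gap the distance from an end to the next start, and the covered share the bases in clusters over the arm length of the headers. X minus the pooled arms was computed within each replicate list and given as mean and SD of 2, with an exact sign-flip permutation test. The regions named were the 10 widest and 10 highest X clusters found in both replicates, the 5 highest found in neither, the 5 longest empty stretches, and the 3 most and 3 least covered bins of 1 Mb. Alternatives were clusters above the median value, merging under 500 bp, arm ends of 2 Mb left out, the combined list, weighting by width, gaps of at least 1000 bp, reciprocal overlap of 50% and single replicates. Members, lists and limits were chosen with earlier results of these data known. The available gene table uses release 6, and positions were not converted, so no gene is named and no sequence printed. The computations were tested on simulated data. Python 3.11.15, NumPy 2.4.6, pandas 2.3.3, SciPy 1.17.1 and Matplotlib 3.10.9 were used.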

Additional observations from a re-analysis of the deposited data

How the results depend on the processing

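No paired analysis was possible because the groups that share replicate numbers are ChIP and input, and no input list was analysed. X differences were already taken within each library. Of 30 alternative values apart from single replicates, 13 stayed within the spread between replicates (for the rank correlation, within 0.02), 15 moved beyond it and 2 changed sign. Each of 2 replicates always lies within that spread of their mean, so single replicates are given as ranges. Keeping clusters above each list's median value gave X minus autosomes of 4.51 points in covered share, 6.75 clusters per Mb, 0.0423 in median value and -5218 bp in median gap. It changed the sign for median width (-74.75 bp) and for the share of bases in broad clusters (-0.594 points), and the cause was not tested. This cut is made on the value itself, which was higher on X, so it kept a larger share of the X clusters. Its results are therefore no independent check of the X differences. Leaving out arm ends of 2 Mb gave 4.00 points in covered share, 0.0985 in median value, 3.61 clusters per Mb and 2.38 points in broad clusters. The combined list gave 4.11 points in covered share, 0.0751 in median value and 3.89 points in broad clusters. Merging gave 2.00 points in broad clusters and lowered the excess in clusters per Mb to 1.03, with 1.78 in replicate 1 and 0.286 in replicate 2. Weighting by width gave 0.0683 in median value. Single replicates ranged from 2.69 to 3.40 points in covered share, 1.13 to 3.49 clusters per Mb, 113.5 to 280.5 bp in median width, 0.0858 to 0.0957 in median value, -1329.5 to -778 bp in median gap and 0.749 to 0.942 points in broad clusters. Without replicate 2 the excess in clusters per Mb was thus 3.49, and without replicate 1 it was 1.13. Without replicate 2 the median width difference was 113.5 bp, against 280.5 bp without replicate 1. A reciprocal overlap of 50% lowered the share of X clusters found in the other replicate to 74.9% and gave a rho of 0.898 across pairs. Above the median value that share was 86.5%. With the depth unknown, a region without a cluster cannot be told from a region with too few reads.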

Other observations

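Chains of closely spaced clusters picked out further parts of X. In the combined list the longest chains with every gap under 1000 bp held 8 clusters each, from 972802 to 1002652 (29.9 kb) and from 13001290 to 13041202 (39.9 kb), and 5 clusters lay from 2623152 to 2639864 (16.7 kb). In replicate 1 the longest had 5 clusters, from 7781771 to 7796213 (14.4 kb) and from 16164077 to 16192945 (28.9 kb). In replicate 2 none had more than 4. Chains of 4 or more on X numbered 10 among 1196 clusters in replicate 1 and 8 among 1177 in replicate 2, over 22.4 Mb. The autosomal arms together had 29 among 4816 clusters and 29 among 4962, over 96.6 Mb, and their longest chain held 7 clusters. Single autosomal arms had 5 to 10 in replicate 1 and 5 to 9 in replicate 2. The chains named here were picked by their number of clusters after the lists were seen.

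Neighbouring X clusters showed little likeness in value. Across neighbours the Spearman rho was -0.03 over 1195 pairs in replicate 1 and 0.06 over 1176 pairs in replicate 2, and 0.03 and 0.05 on the autosomal arms. For X neighbours less than 1000 bp apart it was -0.05 over 260 pairs and 0.05 over 240 pairs.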
